A study of Mus musculus with 4 samples.

Results

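The strong nuclear targets of miR-1a-3p, the main mature product of the miR-1a genes, were the sites in the plantaris where most miR-1a-3p was found ligated to a transcript of the nuclear genome. A peak belonged here when it lay outside the mitochondrial chromosome and held at least 10 chimeric reads named miR-1a-3p. There were 268 such control peaks and 342 such mimic peaks, 610 in all among 194365 peaks of single miRNAs in both libraries. They were 4.94% of the nuclear miR-1a-3p peaks of the control and 5.42% of those of the mimic, and they held 54.6% and 57.6% of the nuclear miR-1a-3p reads. Because the reads chose the members, the reads given below describe the sites and test nothing.

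In the deposited files this miRNA is named mmu-miR-1a-3p. The data came from chimeric eCLIP-seq of the plantaris, a calf muscle, of 5-month-old male mice after 10 days of mechanical overload (MOV), in which part of the synergist muscles is removed and the plantaris grows. The MOV control plantaris had received a scramble lentivirus and the MOV mimic plantaris one expressing a mimic of miR-1, both with TurboGFP as reporter and a CMV promoter, which is not restricted to muscle fibres. Ago2, the protein that carries miRNAs, was crosslinked and immunoprecipitated, and the miRNA was ligated to the RNA beneath it, so that each chimeric read names a miRNA and its target. In the study, mice received the control virus in the left plantaris and the mimic virus in the right. Whether the control and mimic libraries came from the same mouse was not stated. Each group was 1 library, the input libraries were not analysed here, and no difference below has a replicate check.

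miR-1 is the muscle miRNA made in heart and skeletal muscle, and miR-206 is its relative of skeletal muscle. A miRNA guides Ago2 to RNA mainly through its seed, bases 2 to 8 from the 5′ end, and a bound messenger RNA is usually translated less and degraded faster. miR-1a-3p and miR-206-3p have the same seed and differ further along, so both can pair with the same target. The sequence of miR-206-3p is shown because it carries that shared seed, and the other sequences belong to miRNAs often listed on the same peaks (RefSeq, GRCm38.p6, written 5′ to 3′, with the seed in capitals).
miR-206-3p: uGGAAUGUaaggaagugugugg
miR-133b-3p: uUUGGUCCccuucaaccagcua
miR-24-3p: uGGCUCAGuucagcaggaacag
miR-26a-5p: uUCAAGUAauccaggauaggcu
miR-21a-5p: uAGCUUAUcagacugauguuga
miR-22-3p: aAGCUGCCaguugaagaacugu
None of the other 5 printed seeds was that of miR-206-3p.

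The letters that pair with the shared seed, ACATTCC, were searched on the sense strand of the longest coding transcript of each gene in the mm9 GENCODE annotation, matched by symbol. They stood in 98 of the 234 matched coding genes with a strong site (41.9%), in 30.3% of 3201 genes that had weaker miR-1a-3p peaks alone, and in 15.5% of 3382 genes that had peaks of other miRNAs alone. Over all 22611 coding transcripts the share was 16.9%. Per kb of 3′ untranslated region there were 0.169 matches, 0.0988 matches and 0.0608 matches in the same 3 classes, against 0.0785 in all transcripts. Coding sequence differed less, with 0.0788, 0.0879 and 0.0448 matches per kb, against 0.0672 in all transcripts. The transcripts of the 3 classes were of comparable length, with medians of 3583, 3701 and 3134 bases. All coding transcripts were shorter, with a median of 2314 bases, so their share of 16.9% is not matched in length. These are shares of genes and not of peaks, since the peaks were placed on GRCm38 and their own bases were not analysed here.

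Among the genes of the 12 highest sites, Actn3, Mb, Thbs1 and Tpm2 held exactly 1 match in the transcript searched, and so did the study gene Nxn. The windows of 30 bases around these matches are shown to give the context of the pairing letters, which are in capitals.
Actn3: agaaatacctggACATTCCtaagatgctgg
Mb: cctgaagaagagACATTCCggggactttgg
Thbs1: aacctaactaaaACATTCCttttctttctt
Tpm2: aagtgtctcctaACATTCCtaacatggttt
Nxn: accgagtctccaACATTCCatcgctaatat
The match lay in the coding sequence of Actn3 (bases 744 to 750 of 2880), Mb (561 to 567 of 1106) and Nxn (472 to 478 of 2755), and in the 3′ untranslated region of Thbs1 (4642 to 4648 of 5848) and Tpm2 (1924 to 1930 of 2175). Ttn held 5 matches, Cltc 2, Tmsb4x 2 and Atp5a1 1. The study gene Ypel2 also held 1, although it had no strong site. The transcripts of Ldha, Car3, Atp2a1, Myh1, Myh4, Ampd1 and Itm2a held 0, although each of these genes had a strong site. The shorter CATTCC, which pairs with bases 2 to 7 alone, stood 1 time each in Ldha, Myh4 and Itm2a and 3 times in Ampd1. Car3, Atp2a1 and Myh1 held 0 of these as well. The full ACATTCC was also absent from Gdi2, F830016B08Rik, Myh8, Otud1, Eif4g2, Hspb7, Igfbp5, Myf6, Calm2 and Itgb1bp2. Each of those genes had a strong site, and each transcript held at least 1 CATTCC.

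The libraries held 232408 (control) and 259207 (mimic) chimeric reads, so the mimic library was 1.12 times as deep. All 9 genes of the fast-fibre list had reads, which summed to 37934 (control) and 49478 (mimic). Each of these 9 genes also had a strong miR-1a-3p site. The list includes Ttn, Acta1 and Ckm, which are not particular to fast fibres, so the sum does not measure fast fibres alone. Ttn by itself held 15153 (control) and 19977 (mimic) reads of miRNAs outside the seed family. Fibroblast markers summed to 4820 and 4664 reads, slow-fibre markers to 152 and 158, macrophage markers to 96.5 and 98.1 with Cd68 at 0, and endothelial markers to 33.1 and 57.4 with Vwf at 0. A strong miR-1a-3p site was in 3 of 6 fibroblast markers, 1 of 5 slow-fibre markers and no macrophage or endothelial marker. Of all genes with any nuclear miR-1a-3p peak, 6.49% had a strong site. The lists were short and differed widely in reads, so these counts do not compare cell types. All 7 markers of liver, brain and skin were at 0. More chimeric reads on a muscle gene can come, among other things, from a deeper library, from more muscle cells or from more RNA per cell. More cells and more RNA per cell cannot be told apart in a whole muscle, and no source was tested.

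A strong peak was broader and held more miRNAs than a weaker one. The median strong peak spanned 93 nt (control) and 94 nt (mimic), against 64 nt and 65 nt for nuclear miR-1a-3p peaks under 10 reads. Its median was 19.6 miR-1a-3p reads in the control, ranging from 10.0 to 289, and 19.9 reads in the mimic, ranging from 10.0 to 403. Peaks of at least 100 reads numbered 26 in each library, and peaks of at least 200 reads numbered 6 (control) and 12 (mimic). The lowest members were at exactly 10.0 reads, in Tmem214 in the control and Zwint in the mimic, and the highest peaks left out were at 9.99 reads, in Uhmk1 and Bckdha.

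Overlapping strong peaks of both libraries were merged into 357 sites, of which 220 reached 10 reads in both, 33 only in the control and 104 only in the mimic. Sites strong in the control alone had a median of 7.66 reads in the mimic, and those strong in the mimic alone had a median of 6.89 reads in the control, so most of them were present below the minimum in the other library. Of the control strong peaks, 235 of 268 (87.7%, 95% Clopper-Pearson interval 83.1 to 91.4%) overlapped a strong peak of the mimic, and 266 overlapped a miR-1a-3p peak of any height. From the mimic side, 238 of 342 (69.6%, 64.4 to 74.4%) overlapped a strong control peak and 335 overlapped any. Chosen by the same rule, 75.6% of 156 control peaks of miR-206-3p and 86.9% of 580 control peaks of miR-133a-3p overlapped a strong mimic peak of their own miRNA.

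Summed over the sites, mmu-miR-1a-3p had 10994 control reads (95% Poisson interval 10789 to 11201) against 14470 mimic reads (14235 to 14708), which is 1.32 times as many (95% conditional binomial interval 1.28 to 1.35). These intervals cover counting error only. The median log2 ratio of mimic to control over the sites was 0.40, with quartiles of -0.036 and 0.96, where a site with 0 reads in 1 library was set to 3 reads there. The mimic had more reads at 262 of 357 sites. It had at least 2-fold more at 80 sites (22.4%) and at least 2-fold fewer at 13 (3.64%). Over the strong nuclear sites of all miRNAs, built the same way, 16.4% were at least 2-fold higher in the mimic and 7.67% at least 2-fold lower, and over those of miRNAs other than miR-1a-3p 15.6% and 8.21%. Among the 220 sites strong in both libraries the median was 0.21, with 24 sites at least 2-fold higher and 2 at least 2-fold lower. The shares over all miRNAs given above are for sites strong in either library. The counts of 24 and 2 therefore have no like share beside them.

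**Figure D1:**
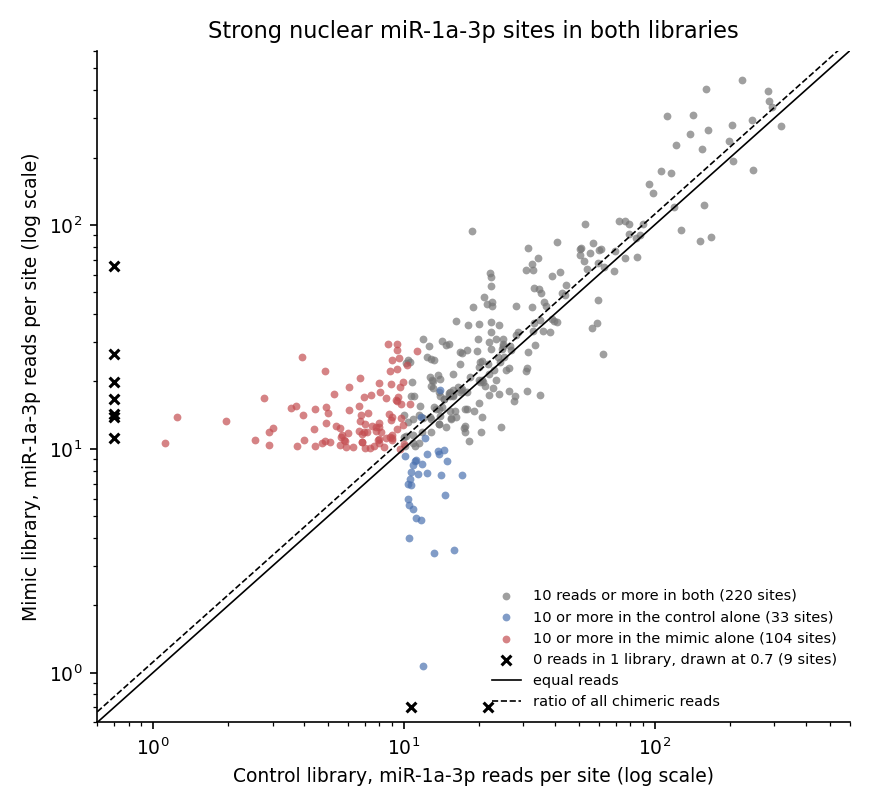
Each point is 1 of the 357 sites, with its miR-1a-3p reads in the control library on the x axis and in the mimic library on the y axis, both on log scales. Grey sites had 10 or more reads in both libraries, blue and red sites in 1 library alone, and crosses mark the 9 sites with 0 reads in 1 library. More points lie above the line of equal reads, with 262 of 357 sites higher in the mimic.

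The strong sites of miR-133a-3p, the other main muscle miRNA, had a median log2 ratio of 0.32 over 689 sites, and those of miR-206-3p had -0.040 over 186 sites. Among the 26 other miRNAs with at least 20 strong sites, the medians ran from -0.33 to 0.77, and 3 were above miR-1a-3p, namely miR-378a-3p with 0.51 over 75 sites, miR-24-3p with 0.397 against 0.395 for miR-1a-3p, and let-7d-5p with 0.77 over 36 sites. miR-199a-3p and miR-199b-3p, which share a mature sequence and were named differently in the libraries, were pooled for these counts.

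The 12 highest sites lay mostly in genes of the contractile apparatus and of muscle metabolism. The highest was in Ttn, which encodes titin, the giant spring of the sarcomere, at chr2:76776695-76776838 on the minus strand (GRCm38), with 284 control reads and 395 mimic reads (ratio 1.39, 1.19 to 1.63). A second Ttn site, at chr2:76723207-76723311, had 161 and 403 reads (ratio 2.51, 2.08 to 3.02). Actn3, the α-actinin of fast-fibre Z-discs, had its site at chr19:4870907-4870993 on the minus strand, with 222 control reads and 443 mimic reads (ratio 1.99, 1.69 to 2.36). At all 3 sites the Poisson intervals of the libraries lay apart, with the mimic above the control. The other miRNAs at these sites, miR-206-3p included, also had more reads in the mimic. Their ratios were 1.36 and 1.92 at the Ttn sites and 1.90 at Actn3.

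Ldha, the lactate dehydrogenase subunit of fast muscle, had 295 control reads and 336 mimic reads at chr7:46850198-46850348 on the plus strand (ratio 1.14, 0.97 to 1.34), which was near the ratio of all chimeric reads. Car3, the muscle carbonic anhydrase, had 244 and 293 reads at chr3:14866802-14866891 on the plus strand (ratio 1.201). Mb, the oxygen-binding myoglobin, had 142 and 311 reads at chr15:77015966-77016072 on the minus strand, close to the 3′ end of the gene (ratio 2.19, 1.79 to 2.69). Of these 3 genes, the interval of the ratio lay wholly above the ratio of all chimeric reads only at Mb. The other miRNAs at the sites of Ldha, Car3 and Mb had ratios of 0.79, 0.89 and 1.15. Over the whole of each gene, miRNAs outside the seed family had ratios of 0.79 (Ldha), 1.31 (Car3) and 1.72 (Mb).

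Thbs1, the matrix protein thrombospondin 1, had 198 control reads and 238 mimic reads at chr2:118125876-118126001 on the plus strand (ratio 1.204, 0.99 to 1.46). Tpm2, the β-tropomyosin of thin filaments, had 164 and 267 reads at chr4:43514887-43515057 on the minus strand (ratio 1.63, 1.34 to 1.99). Atp2a1, the fast-fibre calcium pump SERCA1, went the other way, with 248 control reads and 176 mimic reads at chr7:126460695-126460783 on the minus strand (ratio 0.71, 0.58 to 0.86). The other miRNAs at the sites of Thbs1, Tpm2 and Atp2a1 had ratios of 0.59, 1.82 and 0.85. The remaining 3 of the 12 sites were in the ribosomal RNA gene Rn18s-rs5, with 285 and 360, 319 and 278, and 203 and 279 reads. At those ribosomal sites miR-1a-3p was a small part of a very tall peak, between 5.62% and 20.6% of its reads, and ribosomal RNA has many near-identical copies, so their place is uncertain.

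**Figure D2:**
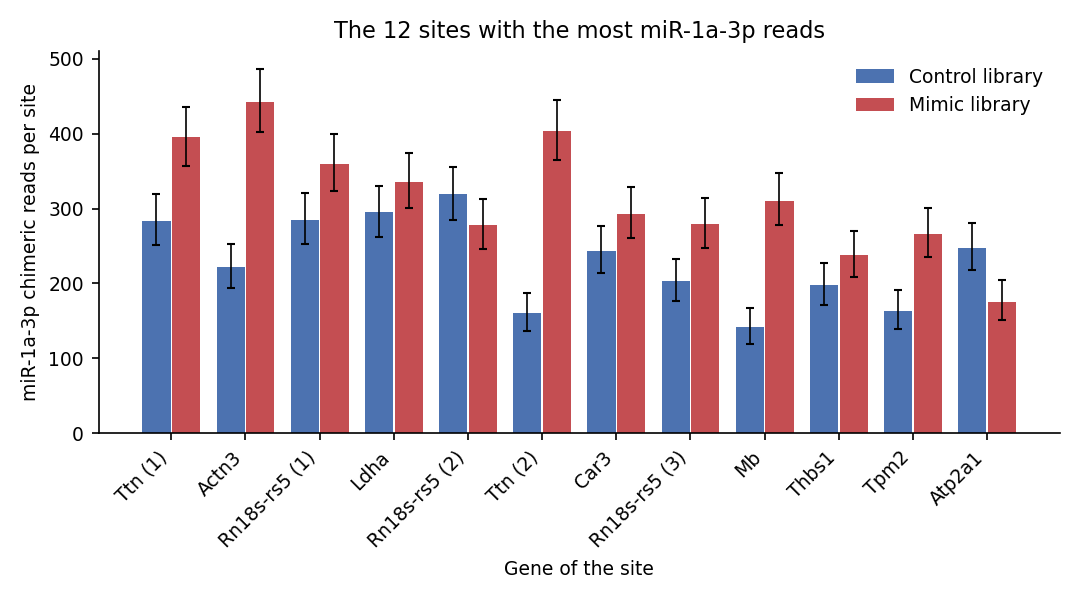
Bars give miR-1a-3p chimeric reads of the 12 sites with the highest mean of both libraries, named by gene, with the control in blue and the mimic in red. Error bars are 95% Poisson intervals, which cover counting error only. The mimic bar is higher at 10 of the sites and lower at the second Rn18s-rs5 site and at Atp2a1.

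Titin held the most sites, 30 in all, 23 of them strong in both libraries. Together they held 1456 control reads and 2452 mimic reads, 13.2% and 16.9% of the reads of all sites. The mimic was higher at 27 of the 30 and at least 2-fold higher at 12, with none at least 2-fold lower. Over the strong nuclear sites of all miRNAs, 16.4% were at least 2-fold higher in the mimic. The Ttn sites not strong in both libraries were all strong in the mimic alone. Some of the 12 were among them, so the choice of sites itself favoured a higher mimic there. Reads of miRNAs outside the seed family on Ttn were also more in the mimic, 15153 against 19977. The sites ran from 10.95% to 99.7% of the way along the gene span, and 23 of them lay past its midpoint. Among the 23 Ttn sites strong in both libraries, the highest ratio was at chr2:76718027-76718141, with 112 control reads and 307 mimic reads (ratio 2.75, 2.20 to 3.43).

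**Figure D3:**
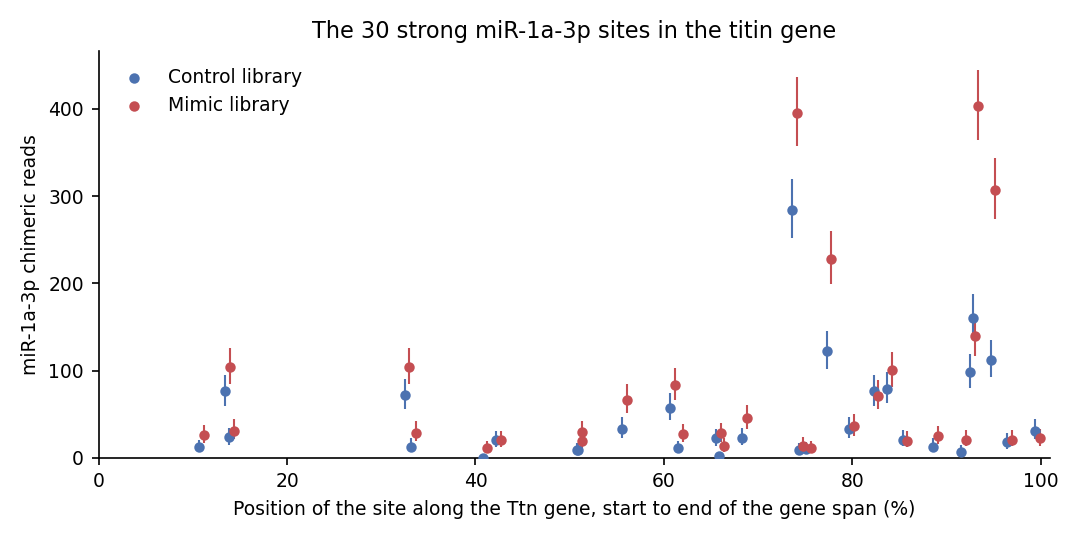
Points are the 30 strong sites in Ttn, placed by their position along the gene from its start (0%) to its end (100%), with miR-1a-3p reads on the y axis and 95% Poisson intervals as lines. The tallest mimic points, at 395, 403 and 307 reads, lie between 73.9% and 94.9% of the gene.

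The myosin heavy chains, the motors of the thick filament, did not move together. Myh4, the chain of the fastest (type IIB) fibres, had 7 sites with 651 control reads and 469 mimic reads, and only 1 of the 7 was higher in the mimic. Its site at chr11:67250329-67250396 had 169 and 88.1 reads (ratio 0.52, 0.40 to 0.68), and the one at chr11:67255299-67255395 had 62.5 and 26.7 reads (ratio 0.43, 0.26 to 0.68). Reads of miRNAs outside the seed family on Myh4 were also fewer in the mimic, 4296 against 3299.

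Myh1, the chain of type IIX fibres, had 150 control reads and 271 mimic reads over 4 sites, all of them higher in the mimic. One of them, at chr11:67217497-67217535, had 18.7 and 93.8 reads (ratio 5.03, 2.999 to 8.58), the largest rise among sites strong in both libraries, and the other miRNAs there went from 20.2 to 99.4 reads. Myh2, of type IIA fibres, had 115 and 198 reads over 2 sites. Myh8, the perinatal chain, had 34.9 and 17.4 reads at its site, and Myh7, the slow chain, had 11.96 and 1.07. Myosin heavy chain genes are alike in sequence, so reads may have been split between them.

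The other large falls among sites strong in both libraries were at Atp2a1, where a second site at chr7:126453023-126453114 had 152 control reads and 84.7 mimic reads (ratio 0.56, 0.42 to 0.73), and at Otud1, a deubiquitinase, with 24.5 and 12.5 reads (ratio 0.51, 0.23 to 1.04). The other large rises were at Cltc, the clathrin heavy chain, with 22 and 61.0 reads (ratio 2.77, 1.68 to 4.74), at Gdi2, a regulator of Rab proteins, with 11.96 and 30.8 (ratio 2.58, 1.29 to 5.52), and at F830016B08Rik, with 22.2 and 58.8 (ratio 2.65, 1.62 to 4.60). At the Cltc site the miRNAs outside the seed family also had more reads in the mimic, 5.41 against 11.3, while over the whole gene they had fewer, 197 against 172. At the Otud1 site they had fewer reads in the mimic, 46.04 against 17.2.

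At 9 sites 1 library had 0 miR-1a-3p reads, and at each of them that library had no peak of any miRNA. The highest was in Rn18s-rs5, with 65.3 reads in the mimic, at least 21.8-fold higher than a floor of 3 reads in the control. Atp2a1 (26.6 reads), Mybpc1 (19.9), Myh1 (16.7), Cdh13 (14.3), Myl1 (13.9) and Ttn (11.2) were also at 0 in the control, and Myh4 (21.7 reads) and Pygm (10.7) were at 0 in the mimic. Several of these were short pieces beside another peak of the same gene.

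The sites fell in 254 genes, 39 of which had 2 or more. These were 6.49% of the 3916 genes with any nuclear miR-1a-3p peak. Genes with a strong site also carried more of the other miRNAs, with a median of 39.4 reads outside the seed family (control) and 44.1 (mimic), against 7.98 and 8.45 for genes with weaker miR-1a-3p peaks alone. The part of this coverage in the counts per function below was not tested. Only 5 sites lay in no gene, the highest at chr10:96077669-96077779 on the minus strand with 154 and 219 reads.

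Of the sarcomere genes, 13 of 20 thick filament and M-band genes with any miR-1a-3p peak had a strong site, as had 6 of 15 thin filament genes and 12 of 29 genes of the Z-disc and costamere, the links between fibrils and to the membrane. The thick filament sites held 2617 control reads and 3773 mimic reads, with a median log2 ratio of 0.51 over 56 sites. The thin filament sites had a median of 0.59 over 18 sites. Neb, the ruler of the thin filament, had 8 of these, with 301 and 425 reads, and 7 of them were higher in the mimic. The Z-disc and costamere median was 0.10 over 16 sites, and Dmd, the dystrophin gene, had 15.4 and 13.6 reads.

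Genes that handle calcium had strong sites in 6 of 23 cases, with 523 control reads and 429 mimic reads, the only one of the 16 lists besides the described miR-1 targets and the myogenic and chromatin regulators whose mimic reads were fewer. The median log2 ratio of its 11 sites was nevertheless above 0, at 0.21. Ryr1, the calcium release channel, had 3 sites with 22.6 and 31.8 reads, and Calm2, a calmodulin, had 39.6 and 37.4. The fall of this list lay in Atp2a1, whose 4 sites held 407 and 300 reads.

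In metabolism, 6 of 24 genes of glycolysis and glycogen had a strong site, with 442 and 495 reads, and Pygm, the muscle glycogen phosphorylase, had 35.6 and 25.1 over 3 sites. Of the genes that buffer energy through phosphagen and adenylate, 3 of 5 had one. Ampd1, the AMP deaminase of fast muscle, was the highest of them at chr3:103085337-103085453 on the plus strand, with 138 control reads and 256 mimic reads (ratio 1.85, 1.502 to 2.30). Of the nuclear genes of mitochondrial metabolism 6 of 39 had a strong site, led by Atp5a1, a subunit of ATP synthase, with 61.2 and 78.4 reads.

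Outside the fibre, 8 of 39 extracellular matrix genes had a strong site, with 488 and 529 reads. Col1a1, a chain of collagen I, had 55.7 and 62.5 reads over 2 sites, and Col3a1, the chain of collagen III, had 44.5 and 34.0 over 2 sites. Of the genes of the non-muscle cytoskeleton and adhesion 4 of 33 had one, led by Tmsb4x, the actin-binding thymosin β4, with 87.7 and 90.5 reads. None of 13 immune genes had a strong site, which is near the 6.49% of all genes with a nuclear miR-1a-3p peak.

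Of the growth, IGF-mTOR and atrophy genes 3 of 16 had one. Igfbp5, an IGF-binding protein, had 53.8 control reads and 63.7 mimic reads, Igf2, a growth factor, had 21.7 and 23.9, and Foxo1, a transcription factor that favours atrophy, had 14.5 and 16.7. Of the myogenic and chromatin regulators 2 of 10 had one, namely Myf6, a myogenic transcription factor, with 35.8 and 33.5 reads, and Hdac4, a histone deacetylase long described as a miR-1 target, with 12.2 and 11.2. In each of these 5 genes the interval of the ratio included 1. Translation factors had a strong site in 3 of 15 cases, led by Eif4g2 with 50.5 and 73.1 reads, and chaperones in 5 of 20, led by Hspb7, a small heat shock protein of muscle, with 14.8 and 29.0. The 5 chaperone sites had more reads in the mimic in sum, 70.6 against 82.4, but a median log2 ratio of -0.33.

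Of 19 genes on a list of described miR-1 targets with any miR-1a-3p peak, 4 had a strong site, Hdac4 among them. The study followed 7 genes that it had chosen partly on these libraries, so their presence is not independent evidence. Itm2a, a membrane protein of muscle and cartilage, reached 10 reads in both libraries (15.7 and 18.3). Nxn, the redoxin nucleoredoxin (8 and 12.6), and Itgb1bp2, the muscle chaperone melusin (4.74 and 10.6), reached it in the mimic alone. B2m, Sh3d19, Acsl3 and Ypel2 did not, with highest peaks between 1.66 and 4.66 reads.

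**Figure D4:**
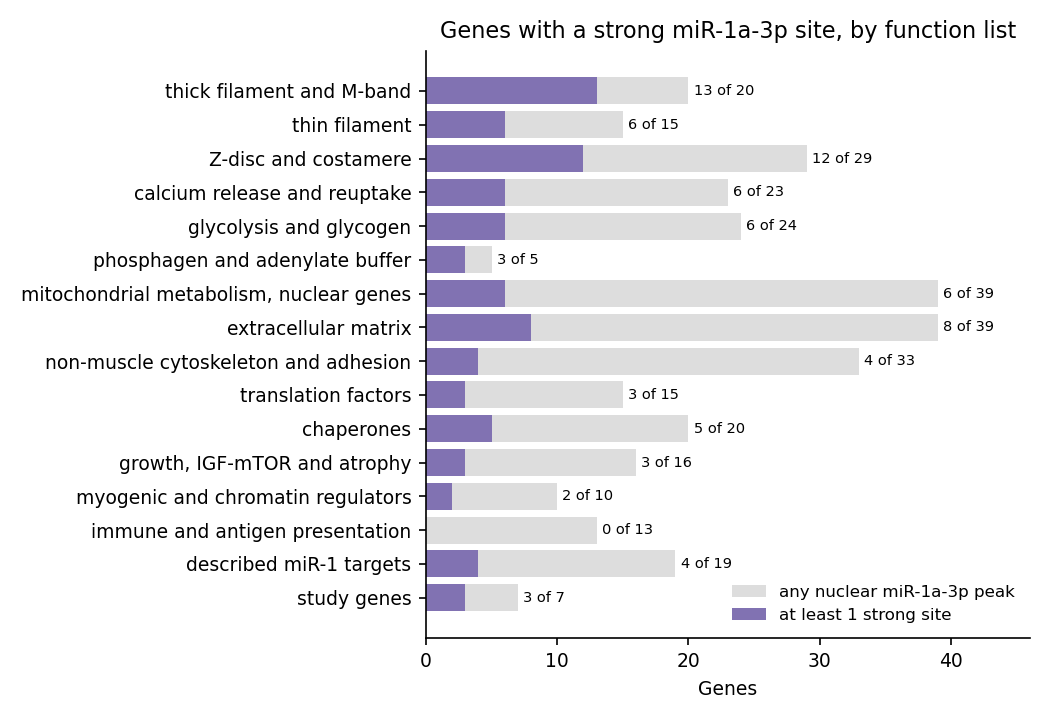
Grey bars give, for each of 16 function lists, the number of genes with any nuclear miR-1a-3p peak, and purple bars the number with at least 1 strong site, with both counts printed beside the bar. The thick filament list stands highest with 13 of 20. A gene can be on more than 1 list.

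The strong peaks were seldom peaks of miR-1a-3p alone. The median strong peak listed 12.5 (control) and 12 (mimic) miRNAs, and only 2 peaks, both in the mimic, listed miR-1a-3p alone. miR-1a-3p had the most reads of any miRNA on 208 of 268 control peaks and 274 of 342 mimic peaks. Its median share of the reads of a peak was 54.2% in the control, ranging from 0.986% to 92.7%, and 57.7% in the mimic, ranging from 0.758% to the whole peak. Weighted by reads the shares were lower, 23.6% and 26.6%, because a few tall peaks were mostly of other miRNAs.

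miR-206-3p was on 261 of the 268 control peaks (97.4%) and 318 of the 342 mimic peaks (93.0%). For comparison, the nuclear peaks with at least 10 reads of another miRNA and under 10 of miR-1a-3p listed miR-206-3p in 37.3% of 1090 control peaks and 37.4% of 1206 mimic peaks. miR-133a-3p, which is encoded beside miR-1 in the genome, was on 73.9% and 74.9% of the strong peaks, and on 77.0% and 77.5% of the comparison peaks. miR-378a-3p was on 53.0% and 52.6%, against 37.7% and 41.8%, and miR-133b-3p on 50.4% and 48.0%, against 59.1% and 59.9%. The comparison peaks were not matched in depth, with a median of 35.7 and 34.7 reads in all against 43.0 and 43.3 for the strong peaks. Their choice also shaped these shares, since the miRNA with at least 10 reads could be miR-133a-3p, miR-133b-3p or miR-378a-3p itself. miR-133a-3p had 580 (control) and 674 (mimic) nuclear peaks of that height. Leaving out strong miR-1a-3p peaks could also lower the share of miR-206-3p, which has the same seed. The highest miRNA other than miR-1a-3p was miR-206-3p at 216 (control) and 194 (mimic) of the 357 sites, and miR-133a-3p at 59 and 63.

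Reads of miR-206-3p, which the choice of sites did not use, summed over the sites to 6156 control reads (6003 to 6312) against 5458 mimic reads (5314 to 5605), or 0.89 times as many (0.85 to 0.92). Reads of miR-133a-3p at the same sites had a ratio of 1.26 (1.22 to 1.30), and all miRNAs outside the seed family together a ratio of 1.14 (1.12 to 1.15). miR-206-3p was lower in the mimic at the sites in sum, while miR-1a-3p was higher. The miR-206-3p share of the miR-1a-3p and miR-206-3p reads was 35.9% among control reads (35.2 to 36.6%) and 27.4% among mimic reads (26.8 to 28.0%). When peaks were chosen on the sum of both miRNAs instead, a choice made after seeing the data, the shares were 39.9% of the reads of 445 peaks and 31.5% of those of 526.

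Of the 173 sites with at least 20 reads of the pair in each library, 138 had a lower miR-206-3p share in the mimic. The share varied widely between sites, from 0 to 97.8% in the control with a median of 25.3%, and from 0 to 91.2% in the mimic with a median of 20.7%. At Actn3 miR-206-3p had 23.3 control reads and 32.6 mimic reads beside 222 and 443 of miR-1a-3p. At Car3 it had 73.7 and 31.8 reads beside 244 and 293. At the site in Fn1, the fibronectin gene, named here after its values were seen, miR-206-3p had 1126 and 962 reads against 120 and 120 of miR-1a-3p. How reads of these alike miRNAs were given a name was not stated, so the split between them is uncertain.

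**Figure D5:**
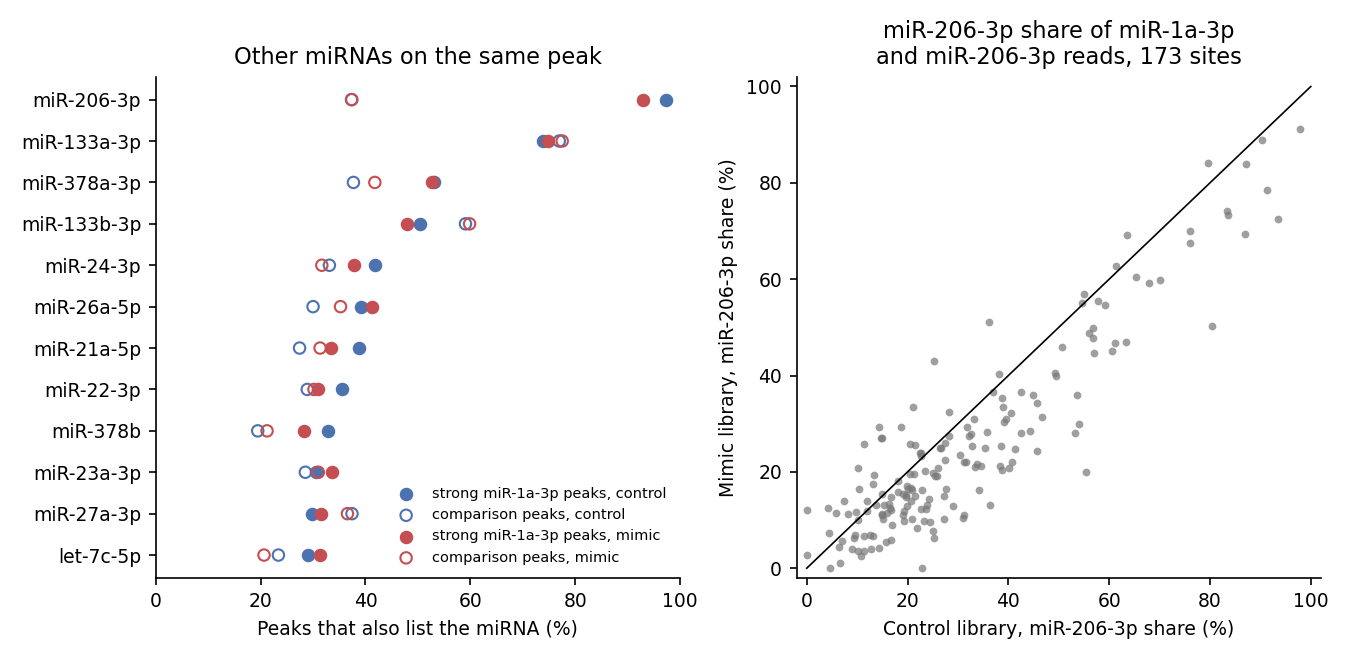
The left panel shows the percentage of peaks that also list each of 12 other miRNAs, with filled points for the strong miR-1a-3p peaks and open points for nuclear peaks with at least 10 reads of another miRNA and under 10 of miR-1a-3p, in the control (blue) and the mimic (red). The right panel plots, for 173 sites, the miR-206-3p percentage of the miR-1a-3p and miR-206-3p reads in the control against the mimic, with the line of equal shares. Of these sites, 138 lie below the line, and miR-206-3p stands apart on the left with 97.4% and 93.0% of strong peaks against 37.3% and 37.4%.

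At 98 sites the miRNAs outside the seed family had at least 20 reads in each library, which allowed a comparison within the site. The ratio of miR-1a-3p was above that of the other miRNAs at 57 of the 98, and the median difference of the log2 ratios was 0.10, with quartiles of -0.27 and 0.66. Among the 78 of them that were strong in both libraries it was above at 44, with a median difference of 0.034. The rise of miR-1a-3p at these deep sites was thus small beside the spread between sites.

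Along the gene, the sites lay toward the 3′ end. Their median position was 77.5% of the gene span, and 33.6% of them lay in its last 10%, against 75.9% and 33.3% for weaker miR-1a-3p sites. Strong and weaker sites therefore differed little in this measure, which does not take introns and exons into account.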

How the data were processed

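Chimeric reads were measured in 1 MOV control and 1 MOV mimic library. The authors deposited one estimated count per miRNA and peak, a number of chimeric reads that was left unscaled. To make each estimated count, the authors trimmed reads, filtered repeats, aligned with STAR, removed duplicates and called peaks with CLIPper, and the submitters' processing notes name UMI-tools 1.1.1, cutadapt 3.2, STAR 2.7.7a, Bowtie 1.2.3, HOMER 4.11 and mm10. The methods name mm9, but the coordinates are of GRCm38 (mm10) and are given here counted from 1. Where the fractional values came from was not given in the sources used here. Of values under 1 read, 20.6% in the control and 20.4% in the mimic equalled the peak length plus 1 divided by a whole number (tolerance 0.001), against 4.42% and 4.31% for the length plus 2. A strand-matched RefSeq gene (GRCm38.p6) was given to each peak, or, at 13 sites, a gene of unknown strand.

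Strong peaks of both libraries that shared at least 1 nt on the same strand were merged into sites, and each weaker miR-1a-3p peak was added to the site it overlapped most. Reads were not scaled. A site with 0 reads was set to the floor of 3 reads for the ratio. Intervals are 95% exact Poisson, Clopper-Pearson or conditional binomial intervals on reads rounded to whole numbers, and they cover counting error, not differences between animals or preparations. No test between conditions was possible with 1 library per group, and no p-value is given. The site and interval code was tested on simulated data. Python 3.11.15, pandas 2.3.3 and scipy 1.17.1 were used.

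Named genes were those of the 12 sites with the highest mean reads, the 5 largest rises and 5 largest falls among sites of at least 10 reads in both libraries, the highest of each of 16 function lists, the 7 study genes and the members next to the minimum, with others from the same lists added as examples. The members and lists were chosen with earlier results of these data known. Alternatives were other minimums, 50% reciprocal overlap, division by library totals, adding miR-206-3p and leaving out Ttn or Rn18s-rs5. One gene on the lists is not reported here.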

Additional observations from a re-analysis of the deposited data

How the results depend on the processing

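No paired analysis was possible because there was a single library to a group. Divided by library totals, the median log2 ratio was 0.24, the ratio of summed reads 1.18 and the miR-206-3p ratio 0.79. With 50% reciprocal overlap, 82.1% of the control strong peaks overlapped a strong mimic peak and 30 sites were at least 2-fold lower. Minimums of 5 and 20 reads gave 881 and 173 sites, and 5 reads lowered the overlap to 78.1%. Counted from the mimic, the overlap was 69.6%. The median was 0.16 over sites strong in the control and 0.21 over sites strong in both. With miR-206-3p added there were 568 sites, with a median of 0.25 and a summed ratio of 1.16. Without Ttn the summed ratio was 1.26. From summed reads in place of the median over peaks, the miR-1a-3p share was 23.6% (control) and 26.6% (mimic). None of the values over all sites changed direction under the alternatives run, and the cause of these shifts was not tested. At 3 single sites whose log2 ratio had an interval including 0, the sign changed. Tmsb4x went from 0.045 to -0.11 when divided by library totals and to -0.11 with miR-206-3p added, and with miR-206-3p added Itm2a went from 0.22 to -0.082 and Eif4g2 from 0.53 to -0.00011. Of the 62 values of single sites under an alternative, these included, 61 stayed within their counting interval, and the other, at Ttn, went from 1.457 to 1.099 with miR-206-3p added. At 10 reads the counting interval of a site is wide, so single sites near the minimum cannot be ranked.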

Other observations

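Genes outside the function lists held 175 of the 254 genes with a strong site, and 42.8% (control) and 42.6% (mimic) of the site reads. The following were named after their values were seen. The long noncoding RNA Malat1 had a site at chr19:5800924-5801068 on the minus strand, with 94.9 control reads and 152 mimic reads (ratio 1.61, 1.23 to 2.09). There miR-1a-3p made up 78.5% and 75.2% of the reads, and the other miRNAs together had a ratio of 1.94. Sh3bgr, a small muscle protein, had 89.96 and 101.3 reads, with miR-1a-3p at 89.8% and 87.4% of them. Ndrg2 had 208 and 185 reads over 3 sites, the kinase gene Hipk3 had 93.1 and 102.2 over 2, and Fth1, the ferritin heavy chain, had 58.8 and 36.3 (ratio 0.62). Sgk1, a kinase of the AKT family, had 34.2 and 71.0 reads (ratio 2.08). The other miRNAs at the Sgk1 site rose more, with a ratio of 4.03, and the miR-1a-3p share went from 53.2% (control) to 37.0% (mimic).

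H19, an imprinted noncoding RNA, had a strong miR-1a-3p site that belonged mostly to other miRNAs. At chr7:142575784-142575858 on the minus strand miR-1a-3p had 21.8 control reads and 21.7 mimic reads. miR-130a-3p had 1158 and 1476 reads there, miR-199a-5p had 492 and 534, and miR-152-3p had 187 and 186.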
